A study of Mus musculus with 2 samples.

Results

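Nectin1, Nectin3, Afdn and Kirrel3, 4 of the 33,696 genes counted in the files, were followed through every cell class of the mouse hippocampus that fixed marker genes could name. They were taken by gene symbol as adhesion genes of the mossy fiber contact, and each symbol matched 1 row: Nectin1 (ENSMUSG00000032012, chromosome 9), Nectin3 (ENSMUSG00000022656, chromosome 16), Afdn (ENSMUSG00000068036, chromosome 17) and Kirrel3 (ENSMUSG00000032036, chromosome 9). One library, the control, came from mice at postnatal day 19 with both alleles of Cic floxed (Cic flox/flox). The other, labelled knockout, came from littermates of the same age with Emx1-Cre and both Cic alleles floxed. Either library is a pool of 3 mice, 2 of them male and 1 female, with 1 hippocampus taken per mouse, and was read by single-nucleus RNA sequencing with unique molecular identifiers (UMIs). Each group is 1 library without a replicate, so no difference below has a test. Its 95% interval covers counting error only, not differences between nuclei, mice or preparations.

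Nectins are cell adhesion molecules of the immunoglobulin superfamily, and nectin-1 on one cell binds nectin-3 on its neighbour more strongly than either binds itself. Afadin, the product of Afdn, binds the cytoplasmic tail of nectins and ties them to the actin cytoskeleton. At the mossy fiber synapse, where dentate granule cell axons reach CA3, nectin-1 is known on the axon side and nectin-3 on the dendrite side of the adhesion sites that flank the synapse. Kirrel3 is a homophilic immunoglobulin-family adhesion molecule that is known for mossy fiber contacts with CA3 and with GABA neurons. Cic encodes Capicua, a repressor that binds TGAATGAA-like DNA, and Emx1-Cre acts in the dorsal telencephalic lineage, which gives rise to hippocampal excitatory neurons and much of the macroglia but not to GABA neurons or microglia.

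The set of RefSeq promoter windows used here, 250 bases before to 50 after the gene start, held Nectin3 and Afdn but not Nectin1 or Kirrel3. The 250 bases before each start are shown because Capicua's octamers were searched in these windows, with each CG dinucleotide in capitals, 5′ to 3′ on the gene's own strand (RefSeq, GRCm38.p6).
Nectin3, chr16:46496968-46497217, minus strand: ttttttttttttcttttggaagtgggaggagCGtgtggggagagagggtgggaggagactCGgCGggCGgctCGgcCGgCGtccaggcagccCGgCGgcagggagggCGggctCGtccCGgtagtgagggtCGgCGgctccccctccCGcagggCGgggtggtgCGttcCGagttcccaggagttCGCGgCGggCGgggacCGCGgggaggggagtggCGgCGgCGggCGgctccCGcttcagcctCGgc
Afdn, chr17:13760291-13760540, plus strand: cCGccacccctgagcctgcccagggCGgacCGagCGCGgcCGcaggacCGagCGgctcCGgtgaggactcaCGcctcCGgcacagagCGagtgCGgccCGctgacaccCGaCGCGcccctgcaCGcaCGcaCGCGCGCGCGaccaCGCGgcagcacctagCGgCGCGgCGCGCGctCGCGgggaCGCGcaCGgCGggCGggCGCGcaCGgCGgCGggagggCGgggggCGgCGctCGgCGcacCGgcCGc
TGAATGAA or TGAATGGA, searched on both strands, occurred in 2.47% of 32,851 RefSeq windows of 300 bases and in neither of these. The absence of these letters says nothing about binding elsewhere. Both windows were rich in G and C, 73.7% for Nectin3 and 83.3% for Afdn against a median of 52.7%.

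After filters and removal of called doublets, 21,792 nuclei remained in the control and 20,556 in the other library, with medians of 9789 and 8773 UMIs. The libraries shared 175 barcodes, 0.675% and 0.754% of their own. The named classes numbered 20, of which 15 had at least 100 nuclei in each library and received ratios, and 12.1% and 14.5% of nuclei stayed unnamed. Cic did not check the labels: in dentate granule-like nuclei it was at 9.13 CPM (UMIs scaled to the class's total, the unit of all levels here) in the control against 12.6 CPM, and in CA3-like nuclei at 6.92 against 11.7 CPM. It was also higher in CA1-like (6.38 against 11.9 CPM) and oligodendrocyte-like nuclei (21.7 against 35.4 CPM). Closer levels were seen in astrocyte-like (16.42 against 18.25 CPM), inhibitory-like (9.81 against 9.55 CPM) and microglia-like nuclei (25.55 against 24.25 CPM). What this means for the labels was not tested. The deleted exons are not given in the sources used here, so these Cic UMIs may lie outside the deleted stretch. The sample is therefore called the library labelled knockout throughout. The 9 dentate granule markers, including Prox1 and Calb1, summed to 4626 and 3254 CPM in dentate granule-like nuclei, and the 8 CA3 markers, including Grik4, to 4175 and 3620 CPM in CA3-like nuclei, none of them at 0.

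The 4 genes were highest in different classes. Wherever values stand in pairs, the control comes first and the library labelled knockout second. Nectin3 was highest in CA3-like nuclei, at 491 CPM (482 to 500) in the control and 422 CPM (413 to 431) in the library labelled knockout. Hilar mossy cell-like nuclei came next with 214 and 202 CPM, from only 72 and 105 nuclei. Dentate granule-like nuclei had the lowest Nectin3 level of all 20 classes in both libraries, 13.5 and 10.3 CPM. Of the neuron classes at the mossy fiber contact, the target class thus had the highest and the source class the lowest Nectin3 level.

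Nectin1 was highest in immature dentate granule-like nuclei, at 105 CPM (99.4 to 111) in the control and 109 CPM (103 to 116) in the library labelled knockout, above every other class beyond counting error. In the control, Cajal-Retzius-like (61.3 CPM), CA2-like (61.2 CPM) and oligodendrocyte-like nuclei (54.5 CPM) followed and their intervals overlapped. Dentate granule-like and CA3-like nuclei were neighbours further down, at 33.9 and 37.6 CPM, with overlapping intervals. Radial glia-like nuclei were lowest in the control, at 5.54 CPM (2.39 to 10.9) from 8 UMIs, and astrocyte-like nuclei next to them at 5.68 CPM, with overlapping intervals. In the library labelled knockout astrocyte-like nuclei were lowest, at 4.89 CPM, and radial glia-like nuclei had 11.2 CPM from 10 UMIs.

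Afdn was spread widely. Among classes with ratios its control level ran from 474 CPM in subicular or cortical excitatory-like nuclei, 451 CPM in cycling progenitor-like and 439 CPM in immature dentate granule-like nuclei down to 61.2 CPM in microglia-like and 49.4 CPM in committed oligodendrocyte precursor-like nuclei. Fibroblast-like nuclei (64 in the control) reached 528 CPM. Dentate granule-like nuclei were the 13th of 20 classes in the control, at 231 CPM, and the 6th in the library labelled knockout, at 422 CPM.

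Kirrel3 in the control was highest in dentate granule-like (2552 CPM), astrocyte-like (2464 CPM) and oligodendrocyte-like nuclei (2259 CPM), each apart from the next beyond counting error. Subicular or cortical excitatory-like nuclei had 2045 CPM and inhibitory-like nuclei 1123 CPM. CA3-like nuclei held 397 CPM and immature dentate granule-like nuclei 320 CPM, so mature and immature granule classes stood far apart. CA2-like nuclei were lowest, at 23.3 CPM, below microglia-like nuclei at 57.5 CPM. In the library labelled knockout the order at the top changed: oligodendrocyte-like nuclei came first at 6062 CPM and committed oligodendrocyte precursor-like nuclei second at 2193 CPM.

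**Figure D1:**
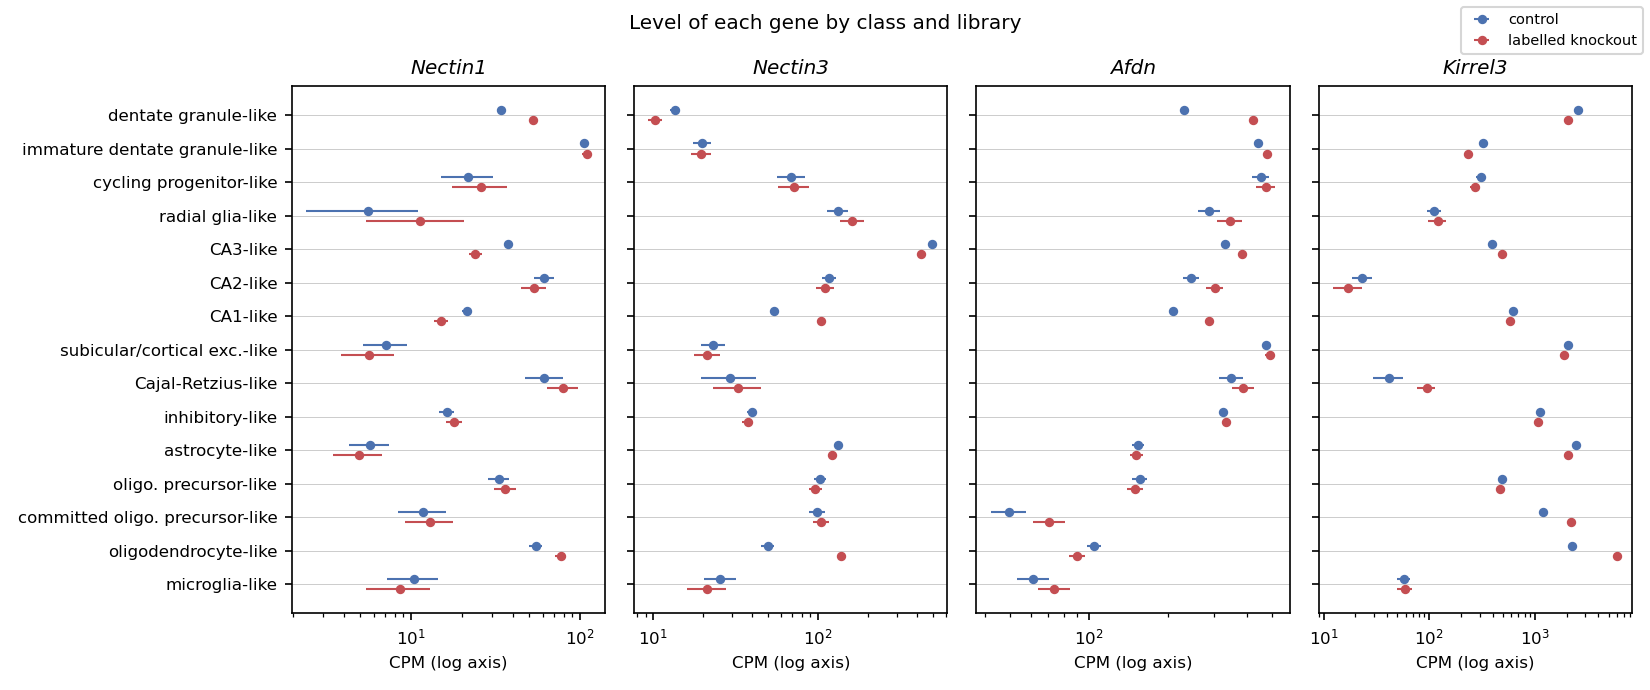
Level of each gene (CPM of the class, log axis) in the 15 classes with ratios, control in blue and the library labelled knockout in red, with 95% Poisson intervals for counting error. Nectin3 peaks in CA3-like nuclei at 491 and 422 CPM, Nectin1 in immature dentate granule-like nuclei at 105 and 109 CPM, and Kirrel3 in the library labelled knockout in oligodendrocyte-like nuclei at 6062 CPM.

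The comparison of the libraries asks whether these genes differ where Capicua was to be removed, and it is read by size: a gene counts as past 2-fold or 1.5-fold only if its higher library has at least 50 UMIs and 10 CPM. Of 60 gene and class pairs, 53 met that minimum, 3 were past 2-fold, all higher in the library labelled knockout, and at 1.5-fold 7 were higher and 1 lower. Among those 3, Kirrel3 in Cajal-Retzius-like nuclei met the minimum only through the library labelled knockout, with 41 UMIs in the control. Over all genes in the same classes, 1.04% of 115982 such pairs were past 2-fold higher, 3.35% past 1.5-fold higher and 1.93% past 1.5-fold lower, with shares that varied by class. Ratios are log2 of the labelled knockout over the control, with 0.5 UMI added to each sum.

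On the mossy fiber side, dentate granule-like nuclei (4602 and 3688) had 2 of the 4 genes past 1.5-fold higher, Afdn and Nectin1, while 4.8% of all 8432 genes measured there were that much higher and 3.27% were past 2-fold in either direction. Afdn was at 231 CPM in the control and 422 CPM in the library labelled knockout, which is a ratio of 0.87 (0.84 to 0.90). The share of nuclei with an Afdn UMI, each nucleus thinned to 2000 UMIs, was 35.3% (33.9 to 36.7) and 55.6% (53.9 to 57.2), unthinned 89.8% and 97.2%. Nuclei under 2000 UMIs could not be thinned and are left out of every thinned share. In microglia-like nuclei, a class in which Afdn is low, the thinned share was 8.86% and 9.87%. For every gene, the thinned microglia-like share covers only the deeper 824 of 1487 and 517 of 1475 nuclei. The median depths of all microglia-like nuclei, 2130 and 1720 UMIs, are below those of the granule nuclei, 11,728 and 10,637. The ratio was 0.87 in nuclei called female and 0.86 in nuclei called male.

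Nectin1 stood at 33.9 CPM in control dentate granule-like nuclei and at 52.8 CPM in the library labelled knockout, which is a ratio of 0.64 (0.55 to 0.73). The share of nuclei with a Nectin1 UMI at 2000 UMIs was 6.67% and 11% (unthinned 29.4% and 40.3%), against 2.31% and 1.16% in microglia-like nuclei at 2000 UMIs. Nectin3, the partner of nectin-1 on the dendrite side, was at 13.5 and 10.3 CPM, a ratio of -0.39 (-0.56 to -0.22), from 762 and 423 UMIs. Microglia-like nuclei carried 0.0565 and 0.0386 Nectin3 UMIs each, which equals 34.1% and 33.7% of the 0.166 and 0.115 per dentate granule-like nucleus, and thinned to 2000 UMIs the share of nuclei with a Nectin3 UMI was 2.72% and 2.04% in dentate granule-like against 4.61% and 4.26% in microglia-like nuclei. The share of dentate granule-like nuclei with a Nectin3 UMI thus gives no reading above that of microglia-like nuclei, while the count per nucleus exceeds theirs, and with their UMIs subtracted the ratio was -0.40. For immature dentate granule-like nuclei the microglia-like count was 56.2% and 49.7% of the Nectin3 count per nucleus. Kirrel3 was at 2552 and 2076 CPM, a ratio of -0.30 (-0.31 to -0.29), and 79.5% of the genes measured in the class had a ratio smaller in size. Neither Nectin3 nor Kirrel3 was past 1.5-fold.

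The dentate granule-like class was made of 2 clusters that the libraries filled unequally: cluster 0 held 24.1% of its control nuclei and 95% of its nuclei in the library labelled knockout, cluster 3 the other 76% and 5.04%. Libraries were not integrated, so ratios within a cluster set unlike shares of the class against each other. Afdn was higher within both clusters, at 269 and 424 CPM in cluster 0 (ratio 0.65) and 220 and 393 CPM in cluster 3 (ratio 0.84). Nectin1 was not: in cluster 0 it was at 58.9 CPM in the control and 53.4 CPM in the library labelled knockout (ratio -0.14, -0.26 to -0.02), in cluster 3 at 27 and 40.3 CPM (ratio 0.59). Nectin3 was at 20.4 and 10.1 CPM in cluster 0 (ratio -1.01) and at 11.7 and 14.4 CPM in cluster 3 (ratio 0.33, -0.28 to 0.84), the latter from 30 UMIs in the library labelled knockout. Kirrel3 was lower within both, by ratios of -0.33 and -0.37. Markers moved as well: the 9 dentate granule markers summed to 4626 CPM in the control against 3254 CPM, and the 8 immature dentate granule markers, including Dcx and Sox11, to 123 against 203 CPM, none at 0 in either library. Their part in the Afdn and Nectin1 differences was not tested.

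Tcte2, on the opposite strand, overlaps Afdn, and whether the counting used strand is not given in the sources used here. Tcte2 was at 32.7 and 71.7 CPM in dentate granule-like nuclei (ratio 1.13, 1.05 to 1.22), past 2-fold, and at 77.6 and 89.6 CPM in CA3-like nuclei (ratio 0.21). Neighbours were taken by position alone, after the data were seen. The 3 counted genes before Afdn on chromosome 17 are Tcte2, Gm16046 and Gm16050. Gm16046 had 54 and 111 UMIs in dentate granule-like nuclei (ratio 1.49) and 91 and 77 UMIs in CA3-like nuclei (ratio 0.06), too few CPM for the size rule, and Gm16050 had 8 and 14 UMIs in dentate granule-like nuclei. The 3 counted genes after Afdn had no UMI in these classes. Of the neighbours of the other genes, only St3gal4 and 4930581F22Rik, after Kirrel3, met the size minimum in dentate granule-like, CA3-like or oligodendrocyte-like nuclei. St3gal4 was at 12.2 and 11.7 CPM in dentate granule-like nuclei (-0.06) and at 83.1 and 48.4 CPM in oligodendrocyte-like nuclei (-0.78, -0.96 to -0.61). 4930581F22Rik was at 16.5 and 16.7 CPM in oligodendrocyte-like nuclei (0.02). Nectin1 overlaps Gm30015, which had 97 and 90 UMIs in dentate granule-like nuclei. Kirrel3 overlaps Kirrel3os, on the opposite strand, with 81 and 65 UMIs in that class. In oligodendrocyte-like nuclei Kirrel3os had 24 and 41 UMIs (ratio 1.02, 0.28 to 1.83), under the minimum of the size rule. Its part in the Kirrel3 counts was not tested. No gene of the annotation used (GENCODE M21, GRCm38) overlaps Nectin3.

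Immature dentate granule-like nuclei (2378 and 2560), the class with the most Nectin1, had none of the 4 genes past 1.5-fold, where 1.98% of 9522 genes were. Nectin1 was at 105 and 109 CPM (ratio 0.05), Afdn at 439 and 477 CPM (0.12) and Nectin3 at 19.8 and 19.5 CPM (-0.02). Kirrel3 was at 320 and 232 CPM, a ratio of -0.46 (-0.54 to -0.39). It was smaller within the clusters of the class, -0.18 in cluster 1 (169 and 150 CPM) and -0.24 in cluster 20 (747 and 632 CPM), and cluster 20 held 16.1% of the control and 9.73% of the labelled knockout nuclei. The class ratio was -0.74 in female and -0.18 in male nuclei, -0.06 with finer clusters and -0.14 with clusters built on all variable genes. Most of these nuclei had no reading: in the control 66.7% held no Kirrel3 UMI and 4.37% held 10 or more, while in the library labelled knockout these shares were 72.3% and 1.84%.

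On the target side, CA3-like nuclei (950 and 872, a single cluster) had 1 of the 4 genes past 1.5-fold, Nectin1, which was lower. Of 8048 genes there, 1.67% were that much lower, and 1.83% were past 2-fold in either direction. Nectin1 was at 37.6 CPM in the control and 24 CPM in the library labelled knockout, a ratio of -0.65 (-0.81 to -0.49), and 53.7% and 36.5% of nuclei held a Nectin1 UMI. Thinned to 2000 UMIs the share was 5.68% (4.30 to 7.35) and 4.93% (3.59 to 6.59), from 55 and 45 UMIs (ratio -0.16, -0.77 to 0.43), against 2.31% and 1.16% in microglia-like nuclei. By sex, the ratio was -0.27 (-0.58 to 0.03) in female and -1.05 (-1.29 to -0.81) in male nuclei.

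Nectin3, highest in this class, was at 491 and 422 CPM there, a ratio of -0.22 (-0.26 to -0.18), with a UMI in 99.2% and 98.5% of nuclei. Afdn was at 331 and 384 CPM (0.22, 0.17 to 0.26). Kirrel3 was at 397 and 485 CPM (0.29, 0.25 to 0.33), but 0.60 in female and 0.00 in male nuclei. The share of CA3-like nuclei without a Kirrel3 UMI was 35.5% and 19.5%, and the share with 10 or more was 26.1% and 31.5%. The CA3 markers named above were also lower in sum in the library labelled knockout, and their part in these ratios was not tested.

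**Figure D2:**
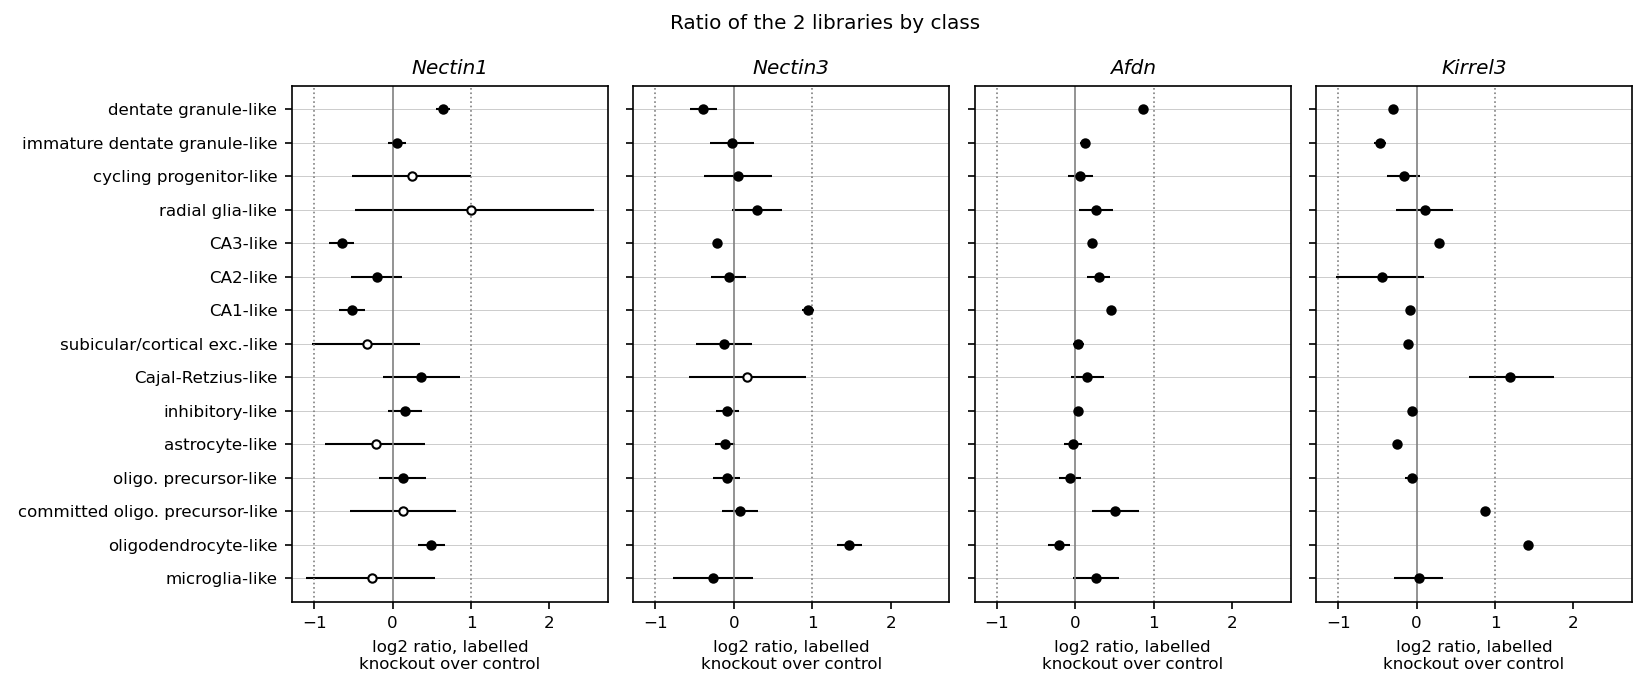
Log2 ratio of the library labelled knockout over the control for each gene in the 15 classes, with exact 95% binomial intervals for counting error; filled points met the minimum of 50 UMIs and 10 CPM, and dotted lines mark 2-fold. Afdn stands out in dentate granule-like nuclei (0.87), Nectin3 in oligodendrocyte-like (1.47) and CA1-like nuclei (0.94), and Kirrel3 in oligodendrocyte-like nuclei (1.42).

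**Figure D3:**
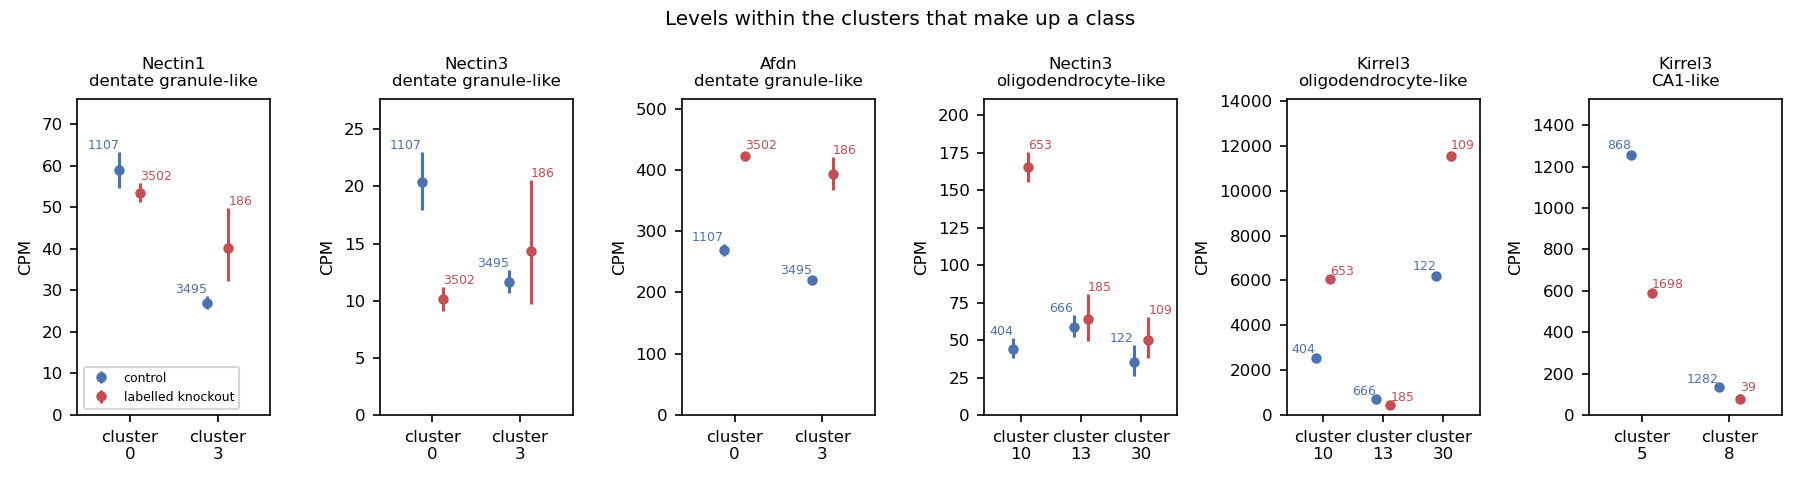
Levels (CPM, linear axis from 0) within the clusters that make up the dentate granule-like, oligodendrocyte-like and CA1-like classes, with 95% Poisson intervals and the number of nuclei beside each point. Afdn is higher in the library labelled knockout within both granule clusters, whereas Nectin1 is at 58.9 and 53.4 CPM in cluster 0.

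CA1-like nuclei (2150 and 1737) had Nectin3 past 1.5-fold higher, as were 6.78% of 8213 genes there. It was at 54.1 CPM in the control and 104 CPM in the library labelled knockout, a ratio of 0.94 (0.86 to 1.02), close in female (0.91) and male nuclei (1.04). Within cluster 5, which held 40.4% of the control and 97.8% of the labelled knockout nuclei of the class, Nectin3 was at 47.7 and 104 CPM (1.12). Ratios within cluster 5 thus set most labelled knockout nuclei of the class against a smaller part of the control. Nectin1 was at 21.5 and 15.1 CPM in the class (-0.51), at 26.3 and 15 CPM in cluster 5 (-0.81) and at 17.8 and 19.1 CPM in cluster 8, the last from 12 UMIs in the library labelled knockout. Afdn was at 208 and 286 CPM in the class (0.46) and had a ratio of 0.32 within cluster 5. Kirrel3 was at 617 and 581 CPM in the class (-0.09) but at 1256 and 592 CPM within cluster 5 (-1.09), and cluster 8, with 1282 control nuclei and 39 of the library labelled knockout, had it at 137 and 78.1 CPM. The 7 CA1 markers, including Wfs1, summed to 395 and 482 CPM in the class and the 8 immature dentate granule markers to 76.6 and 153 CPM, none at 0. Their part in these ratios was not tested. CA2-like nuclei (145 and 119) had Nectin3 at 116 and 111 CPM (-0.07), Afdn at 245 and 301 CPM (0.30), Nectin1 at 61.2 and 53.1 CPM (-0.20) and Kirrel3 at 23.3 and 17 CPM (-0.45, -1.03 to 0.10). Directions there were not stable over the settings tried: Afdn was -0.24 when thinned to 2000 UMIs (81 and 56 UMIs), Nectin3 was 0.30 in female nuclei and 0.20 with called doublets kept, and Kirrel3 was -1.19 in female and 0.54 in male nuclei (20 and 21 UMIs). In CA2-like nuclei a scaling by median ratios would lower every ratio by 0.11; in the other classes with ratios that shift was at most 0.09 in size.

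Inhibitory-like nuclei, which descend from outside the Emx1 lineage, had all 4 genes close together in the libraries when taken as a whole class. Their ratios were 0.16 for Nectin1, -0.08 for Nectin3, 0.03 for Afdn and -0.05 for Kirrel3, and 0.49% of 8784 genes were past 1.5-fold in this class. Within its clusters Kirrel3 was 0.00 in cluster 9, -0.25 (-0.30 to -0.20) in cluster 15 and 0.12 (0.05 to 0.19) in cluster 25. Nectin3 in the class was 0.21 (-0.06 to 0.48) in female and -0.25 (-0.45 to -0.04) in male nuclei. Microglia-like nuclei, also outside that lineage, had Afdn at 61.2 and 73.5 CPM (0.27), Nectin3 at 25.6 and 21.3 CPM (-0.26), Kirrel3 at 57.5 and 58.6 CPM (0.03) and Nectin1 at 34 and 23 UMIs, with intervals of the ratios that reach past 0. Kirrel3 in microglia-like nuclei had 24 and 62 UMIs in female (1.35, 0.67 to 2.11) and 113 and 32 UMIs in male nuclei (-1.24, -1.87 to -0.68). A single nucleus held 36 of the 62 and another 55 of the 113, so no direction by sex is read from these sums. Afdn there had -0.11 (-0.71 to 0.48) in female and 0.59 (0.03 to 1.15) in male nuclei. Whether the ratios of inhibitory-like and excitatory classes differ was not tested.

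Oligodendrocyte-like nuclei (1192 and 947) held 2 of the 3 pairs past 2-fold, Nectin3 and Kirrel3, both higher, where 2.19% of 8090 genes were that much higher. Nectin3 was at 49.5 CPM in the control and 138 CPM in the library labelled knockout (ratio 1.47, 1.32 to 1.63). Kirrel3 was at 2259 and 6062 CPM (1.42, 1.40 to 1.45). Female nuclei gave 1.73 for either gene and male nuclei 1.32 for Nectin3 and 1.46 for Kirrel3. Nectin1 was at 54.5 and 76.8 CPM (0.50), with 1.13 in female nuclei, past 2-fold, and 0.25 in male nuclei. In the class as a whole Afdn was at 104 and 90.1 CPM (-0.21).

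The 3 oligodendrocyte-like clusters differed, and the libraries filled them unequally: cluster 10 held 33.9% of the control and 69% of the labelled knockout nuclei of the class, and cluster 13 held 55.9% and 19.5%. Afdn was at 64.3 and 87.8 CPM in cluster 10 (0.45, 0.23 to 0.66), at 165 and 173 CPM in cluster 13 (0.07, -0.18 to 0.30) and at 28.7 and 22.9 CPM in cluster 30 (-0.32, -1.11 to 0.43; 40 and 25 UMIs). Nectin1 had a ratio of 0.45 in cluster 10, 0.44 in cluster 13 and 0.45 in cluster 30. In cluster 10 (404 and 653 nuclei) Nectin3 had a ratio of 1.90 and Kirrel3 of 1.24, in cluster 30 (122 and 109 nuclei) 0.51 and 0.90, and in cluster 13 (666 and 185 nuclei) 0.13 and -0.70. Kirrel3 was uneven from nucleus to nucleus: its median was 6 and 18 UMIs, 21.6% and 13% of nuclei held none, and the highest nuclei held 645 and 818 UMIs. At 2000 UMIs per nucleus the spread relative to the mean, given as the variance less the mean over the squared mean, was 1.78 and 1.52. The 7 markers of committed oligodendrocyte precursors summed to 1274 and 1122 CPM in oligodendrocyte-like nuclei, with none at 0, and their part in these ratios was not tested.

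Committed oligodendrocyte precursor-like nuclei (456 and 464) had Kirrel3 at 1195 and 2193 CPM, a ratio of 0.88 (0.82 to 0.93), past 1.5-fold as were 4.35% of 7430 genes in the higher direction. The ratio was 1.52 in female and 0.78 in male nuclei, and 0.31 with called doublets kept, which is no longer past 1.5-fold. More of these nuclei were without a Kirrel3 UMI in the library labelled knockout, 43.8% against 32.9%, while the highest nucleus held 265 against 106 UMIs. Oligodendrocyte precursor-like nuclei (1031 and 1133) had none of the 4 genes past 1.5-fold, with Kirrel3 at 487 and 466 CPM.

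Astrocyte-like nuclei (2018 and 1810) had Kirrel3 at 2464 and 2068 CPM (-0.25, -0.28 to -0.22), Nectin3 at 133 and 122 CPM and Afdn at 154 and 152 CPM. The third pair past 2-fold, Kirrel3 in Cajal-Retzius-like nuclei (175 and 223), rested on 41 and 104 UMIs (ratio 1.19, 0.66 to 1.76), where 1.36% of 4122 genes were that much higher. The highest nuclei held 13 of the 41 and 30 of the 104 UMIs, and 90.3% and 81.2% of nuclei held none, so single nuclei weigh on this ratio beyond its counting interval. The ratio was 0.94 in female nuclei, -0.46 (-1.46 to 0.51) in male nuclei and -0.06 with called doublets kept. Female and male nuclei held 15 and 21 of the 41 control UMIs. In the library labelled knockout they held 30 and 18 of the 104, with at most 8 and 4 in a nucleus. The highest nucleus there thus had no sex call. None of the 4 genes was past 1.5-fold under the size rule in CA2-like nuclei, where 10.8% of genes were in either direction, or in subicular or cortical excitatory-like (6.13%), radial glia-like (5.92%), cycling progenitor-like (4.67%), microglia-like (3.37%), oligodendrocyte precursor-like (2.25%) and astrocyte-like nuclei (2.12%).

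**Figure D4:**
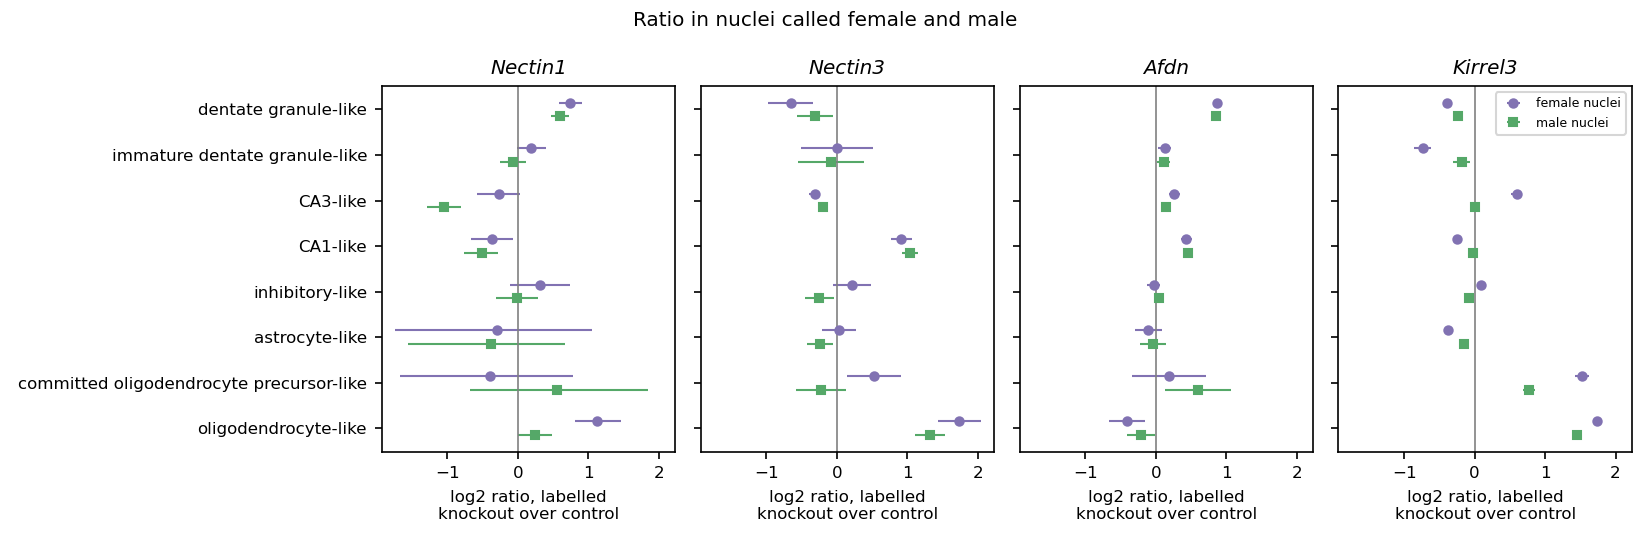
Log2 ratio of the library labelled knockout over the control in nuclei called female (circles, 1 mouse per library) and male (squares, 2 mice per library), with exact 95% binomial intervals for counting error. Afdn in dentate granule-like nuclei lies at 0.87 and 0.86, while Nectin1 in CA3-like nuclei lies at -0.27 and -1.05 and Kirrel3 in CA3-like nuclei at 0.60 and 0.00.

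Kirrel3 and Afdn also differed in how evenly the nuclei of the CA1-like and CA3-like classes carried them. In dentate granule-like nuclei 99.5% of control and 98.1% of labelled knockout nuclei held at least 2 Kirrel3 UMIs, with medians of 28 and 19. CA1-like nuclei were divided, with 41.7% and 30.4% at 0 and 31.2% and 29.3% at 10 or more. Inhibitory-like nuclei were divided likewise, with 24.9% and 25.2% at 0 and 43.5% and 40.3% at 10 or more. The same relative spread at 2000 UMIs per nucleus was 2.39 and 2.16 for Kirrel3 in CA1-like nuclei and 4 and 2.70 in CA3-like nuclei. For Afdn it was 0.113 and 0.0908 in CA1-like nuclei and 0.0795 and 0.0324 in CA3-like nuclei. In dentate granule-like nuclei both genes were low on this measure, Kirrel3 at 0.177 and 0.297 and Afdn at 0.105 and 0.0848.

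**Figure D5:**
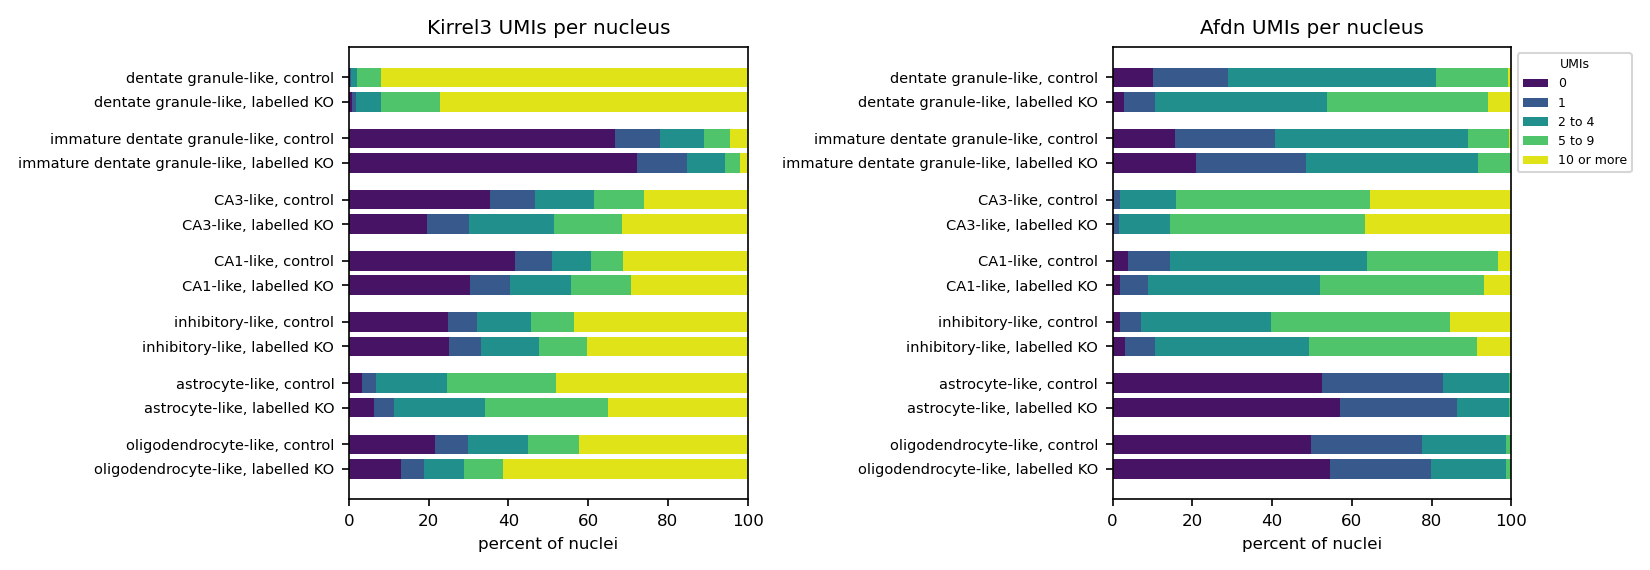
Share of nuclei (percent) by the number of Kirrel3 UMIs (left) and Afdn UMIs (right) they hold, for 7 classes in each library, at each nucleus's own depth. Nearly all dentate granule-like nuclei hold Kirrel3, whereas CA1-like nuclei hold none in 41.7% (control) and 30.4% (labelled knockout, labelled KO) and 10 or more in 31.2% and 29.3%.

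In the 8 unnamed clusters with at least 100 nuclei in each library, 3 of the 27 values of these genes that met the size minimum were past 2-fold, all higher, against 2.25% of 60909 gene and cluster pairs over all genes there. The shares past 2-fold higher were 2.34% in cluster 11, 2.43% in cluster 14 and 2.87% in cluster 24. Nectin3 in cluster 11 (540 and 497 nuclei) was at 5.34 and 23.4 CPM (ratio 2.12) and in cluster 24 (243 and 271 nuclei) at 44.7 and 96.3 CPM (1.11). The cluster 11 value met the minimum of 10 CPM only through the library labelled knockout. Kirrel3 in cluster 14 (372 and 437 nuclei) was at 403 and 817 CPM (1.02). None of these clusters could be named, because their best marker set had a mean log2 fold under 0.5. The smaller unnamed cluster 29 (90 and 145 nuclei) was also past 2-fold for Nectin3, at 13 and 41.9 CPM (16 and 108 UMIs), and for Kirrel3, at 337 and 852 CPM (413 and 2196 UMIs), where 6.52% of genes were that much higher. These clusters were singled out after their values were seen.

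Partner genes came from 3 lists. Of the 11 relatives of nectins and Kirrel3, which include the synaptic adhesion genes Cadm1 to Cadm4, 5 were measured in dentate granule-like nuclei and 1 was past 2-fold, where 3.27% of all genes were in either direction: Kirrel, at 155 and 755 UMIs (2.75 and 18.4 CPM, ratio 2.74). Kirrel met the minimum of 10 CPM there only through the library labelled knockout. Its level in that library remained below that of immature dentate granule-like nuclei, 31.5 and 36.8 CPM. Cadm4 followed at 10.4 and 15.5 CPM (0.57) and Cadm2 at 7351 and 5793 CPM (-0.34). The list's median was 0.15 against 0.02 over all genes measured there. In CA3-like nuclei 4 of the 11 were measured and none was past 1.5-fold, where 4.46% of all genes were higher and 1.67% lower by that much. The list's median there was 0.22 against 0.07, with Cadm4 (0.46) and Cadm1 (0.26) at its upper end.

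Of the 8 Kirrel3 partners, 1 was past 2-fold in dentate granule-like nuclei, against the same 3.27% of all genes: Myo16, an unconventional myosin, at 16.7 and 73.5 CPM (ratio 2.14). Myo16 was at 68.2 and 126 CPM in CA3-like nuclei (0.89), past 1.5-fold as were 4.46% of genes in that direction, and at 447 and 422 CPM in inhibitory-like nuclei (-0.08). The list's medians were -0.03 against 0.02 in dentate granule-like and 0.12 against 0.07 in CA3-like nuclei. Of the 22 afadin partners and adherens junction genes, 19 were measured in dentate granule-like nuclei. None was past 1.5-fold, where 4.8% of all genes were that much higher. Vcl, which encodes the actin-binding protein vinculin, had a ratio of 0.48, Ssx2ip one of 0.41 and Sorbs2 one of -0.37, and the list's median was -0.08 against 0.02.

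In CA3-like nuclei 1 of 19 measured genes of that list was past 2-fold, against 1.83% of all genes: Pard3, a polarity scaffold, at 72.9 and 192 CPM (ratio 1.40). In CA1-like nuclei 2 of 20 were past 1.5-fold higher, against 6.78% of all genes: Pard3 at 68.3 and 154 CPM (1.17; 2.84% of genes were past 2-fold higher) and Plekha7 at 32.6 and 62.3 CPM (0.93). Pard3 was at 412 and 337 CPM in dentate granule-like nuclei (-0.29). The medians of the list were 0.10 against 0.07 in CA3-like and 0.19 against 0.08 in CA1-like nuclei. None of the measured genes of the 3 lists was past 1.5-fold in inhibitory-like (0.49% of all genes) or immature dentate granule-like nuclei (1.98%). In the latter, the values largest in size were -0.56 for Lmo7, at 56 and 37.9 CPM, and -0.50 for Cadm2, at 7247 and 5135 CPM. In inhibitory-like nuclei Cadm4 had 0.29 and the medians of the lists were -0.07, -0.05 and -0.07 against 0.04. In oligodendrocyte-like nuclei, genes outside that naming rule were chosen after their values were seen. Cadm2 (1980 and 4188 CPM, 1.08) and Sorbs2 (25.8 and 67.5 CPM, 1.39) were past 2-fold higher, as were 2.19% of genes there. Nck2 (43.3 and 20.4 CPM, -1.09) was past 2-fold lower, as were 1.01% of genes. The median of the 20 measured afadin partners was -0.22 against -0.09.

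The pattern of each gene over the 20 control classes was set against 8042 genes by Pearson's r of log2(CPM + 1), given as a description with no test. The classes share 1 library and differ in depth and in number of nuclei. Nearest to Afdn were 2700054A10Rik (0.88 in the control, 0.80 in the library labelled knockout), which is on chromosome 17 too, Tcte2 (0.83 and 0.76) and Plxna2 (0.82 and 0.82). 2700054A10Rik was at 9.20 and 19 CPM in dentate granule-like nuclei (1.05). Nearest to Nectin3 were Trps1 (0.80 and 0.79), which is 1 of the CA3 markers used for naming, Luzp2 (0.70 and 0.47) and Arhgef26 (0.69 and 0.60). Nectin1 came closest to Ank3 (0.71 and 0.71), Tmem178 (0.65 and 0.59) and Pak5 (0.64 and 0.62), and Kirrel3 to Fut8 (0.68 and 0.45), Kcnq3 (0.67 and 0.68) and Limch1 (0.64 and 0.45). Among the 4 genes themselves no pair was above 0.14 in the control.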

How the data were processed

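Nuclei of 2 mouse hippocampus libraries, 1 per group, were analysed from raw counts: UMI counts per gene and nucleus, deposited without normalization and which the authors obtained from Cell Ranger 8.0.1, per the file headers; the build was mm39 per the submitters' processing notes. The control table holds 314,453,640 UMIs over 25,907 barcodes and the other 252,995,761 UMIs over 23,207. Nuclei with under 500 genes or over 5% mitochondrial UMIs were left out, as were doublets called by Scrublet in scanpy 1.11.5 (13% and 10.8%).

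Clusters came from 3000 variable genes, 30 principal components and a 15-neighbour Leiden partition at resolution 1, without the 4 genes, their listed partners, Xist, Tsix, Y-linked or mitochondrial genes. A cluster was named from 22 fixed marker sets when at least 3 markers of its best set were raised and the set's mean log2 fold was at least 0.5. It stayed unnamed if another set had more markers among its 10 leading genes. So did a cluster with no marker of its best set among those genes and, in either library, median UMIs under the library's median divided by 3. One with a mean under 1 and no such marker also stayed unnamed, a minimum set after the clusters were seen. Libraries were not integrated, since library and genotype coincide. The members and lists were chosen with earlier results of these data known.

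UMIs were summed per library and class. Levels are CPM with exact Poisson intervals, shares have exact Clopper-Pearson intervals, and ratios have exact conditional binomial intervals, all at 95% and for counting error only. Female nuclei had at least 2 Xist UMIs and no Y-linked UMI, male nuclei no Xist UMI and at least 1 Y-linked UMI. In the 2 libraries 29.56% and 30.62% of nuclei were called female and 43.46% and 44.35% male. The rest had no sex call and enter the class values only. Partner genes were named if past 2-fold in the dentate granule-like, immature, CA3-like, CA1-like or inhibitory-like class, up to 6, and otherwise up to 3 per list by size. The ratio step was tested on simulated data. Overlaps and gene order came from GENCODE M21, of another build (GRCm38), used for order only. Alternatives covered scaling, doublets, filters, thinning, sex, clustering and free RNA.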

Additional observations from a re-analysis of the deposited data

Results flagged for a closer look

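Nectin1 lay past 1.5-fold in opposite directions in 2 classes: its log2 ratio of the library labelled knockout over the control was 0.64 in dentate granule-like nuclei and -0.65 in CA3-like nuclei. The difference between the classes was not tested, since each group is 1 library. Within the granule clusters, which the libraries filled unequally, the ratio was -0.14 in cluster 0 and 0.59 in cluster 3. The value in CA3-like nuclei was -0.27 (-0.58 to 0.03) in female nuclei, -1.05 in male nuclei and -0.16 (-0.77 to 0.43) when nuclei were thinned to 2000 UMIs, so it was past 1.5-fold in neither the female nor the thinned nuclei.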

How the results depend on the processing

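No paired analysis was possible because each group is 1 library. Of the 8 ratios in dentate granule-like and CA3-like nuclei, 7 kept their sign under 11 other settings, 1 of them chosen after seeing the data. Kirrel3 in CA3-like nuclei was 0.00 (-0.06 to 0.06) in male nuclei. Ratios within clusters are not among these settings. Nectin1 was -0.14 in granule cluster 0 and Nectin3 0.33 (-0.28 to 0.84) in granule cluster 3, both of the sign opposite to the class. In dentate granule-like nuclei, female nuclei alone gave 0.74 for Nectin1, -0.65 for Nectin3 and -0.40 for Kirrel3, and male nuclei -0.23 for Kirrel3. Thinning to 2000 UMIs gave 0.91 for Afdn and -0.33 for Kirrel3. Kirrel3 was -0.32 with median-ratio scaling or with microglia-like UMIs subtracted, and -0.34 as a mean over nuclei.

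In CA3-like nuclei, female nuclei gave -0.27 for Nectin1, -0.31 for Nectin3, 0.27 for Afdn and 0.60 for Kirrel3, and male nuclei -1.05 for Nectin1, 0.14 for Afdn and 0.00 for Kirrel3. Thinning gave -0.16 for Nectin1, 0.08 for Afdn and 0.41 for Kirrel3. Median-ratio scaling gave -0.29 for Nectin3, 0.15 for Afdn and 0.22 for Kirrel3, doublets kept 0.27 for Afdn and 0.16 for Kirrel3, and naming without the added minimum, which adds cluster 21, 0.43 for Kirrel3. Genes past 2-fold in CA3-like nuclei numbered 147, against 93 thinned, 301 in female nuclei and 582 with at least 20 UMIs and no CPM minimum, which admits more genes; in dentate granule-like nuclei that minimum gave 942 against 276. Kirrel3 in Cajal-Retzius-like nuclei turned to -0.06 with doublets kept and -0.46 in male nuclei. The cause of these shifts was not tested. Low counts limit Nectin1 in 6 of the 15 classes.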
